A study of Mus musculus with 2 samples.

Results

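The 9 genes described here make up 3 paralogous microRNA clusters, each with a gene of the miR-99/100 family first, then a let-7 gene and then a miR-125 gene. They are Mir99a, Mirlet7c-1 and Mir125b-2 in the Mir99a cluster, Mir100, Mirlet7a-2 and Mir125b-1 in the Mir100 cluster, and Mir99b, Mirlet7e and Mir125a in the Mir99b cluster. They were chosen by symbol from the 2202 microRNA genes in both count tables, through the Ensembl identifiers of GENCODE M21, and all 9 were found. The libraries were made from total RNA of the gastrocnemius, a large calf muscle, of B6CASTF1/J females, offspring of a C57BL/6J by CAST/EiJ mating, at an age of 25 days. No treatment or further genotype is named, and the 2 libraries are replicates 1 and 2 of 1 group. The labels give both the same donor identifier while numbering the source females separately, so each SD is that of the libraries and may or may not be that of animals.

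A microRNA is cut from a hairpin transcript and pairs with messenger RNAs mainly through its seed, bases 2 to 8, which lowers their translation and stability. The arrangement of a miR-100-type gene, let-7 and a miR-125 (lin-4) gene is ancient and is also found in insects. The let-7 family represses growth and stem cell genes such as Hmga2 and Lin28a. The miR-125 family is the vertebrate counterpart of the worm timing gene lin-4 and also targets Lin28a. The miR-99/100 family, a branch of the miR-10 family, targets Mtor and Igf1r of the growth factor pathway, and miR-125b targets Igf2 in myoblasts. No target messenger RNA was measured here.

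The 5′ arms carry the seeds and show how alike the paralogs are. Each is printed 5′ to 3′ with the seed in capitals, as given by RefSeq for GRCm38.p6, the assembly also called mm10. The let-7a sequence comes from the RefSeq entry of Mirlet7a-1 and is found letter for letter in the Mirlet7a-2 hairpin.
miR-99a-5p (Mir99a): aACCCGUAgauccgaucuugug
miR-100-5p (Mir100): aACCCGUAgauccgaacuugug
miR-99b-5p (Mir99b): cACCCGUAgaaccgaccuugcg
let-7c-5p (Mirlet7c-1): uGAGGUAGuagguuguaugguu
let-7a-5p (Mirlet7a-2): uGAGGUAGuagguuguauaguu
let-7e-5p (Mirlet7e): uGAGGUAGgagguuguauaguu
miR-125b-5p (Mir125b-1 and Mir125b-2): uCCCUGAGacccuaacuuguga
miR-125a-5p (Mir125a): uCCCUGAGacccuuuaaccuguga

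Each position has 1 seed, shared by all 3 of its paralogs. Substitutions are given with positions counted from 1 at the 5′ end. From miR-99a-5p to miR-100-5p the change is U16A. From miR-99a-5p to miR-99b-5p there are 4 changes, A1C, U11A, U16C and U21C. From let-7c-5p to let-7a-5p the change is G19A, and from let-7a-5p to let-7e-5p it is U9G. The miR-125b-5p arm of Mir125b-1 and Mir125b-2 is identical, and it shares its first 13 bases with miR-125a-5p, which is 24 bases long against 22. The hairpins differ more than the arms: between paralogs, 20 to 30 single-base edits separate them.

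The 5′ arms also differ in how many annotated hairpins hold them. Those of 5 members, Mir99a, Mir100, Mir99b, Mirlet7e and Mir125a, occur exactly in 1 of the 2202 hairpins. Those of the other 4 occur in 2: let-7c-5p in Mirlet7c-1 and Mirlet7c-2, let-7a-5p in Mirlet7a-1 and Mirlet7a-2, and miR-125b-5p in its pair of genes. The longest stretch shared with a hairpin elsewhere was 23 or 24 bases in those 4 members and 11 to 17 bases in the other 5. The 3′ arm of every member occurs in 1 hairpin only. A read as short as a mature arm can therefore match 2 loci in these 4 members, and their levels are uncertain. Loci here and below are annotated hairpins, and the rest of the genome was not searched.

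In mm10, all 9 hairpins lie on the forward strand. The Mir99a cluster holds Mir99a (ENSMUSG00000065530.1) at chr16:77598936-77599000, Mirlet7c-1 (ENSMUSG00000065557.3) at chr16:77599657-77599750 and Mir125b-2 (ENSMUSG00000065472.1) at chr16:77646273-77646343. They lie in introns of the non-coding gene Mir99ahg, and Mir125b-2 also touches an exon of C130023A14Rik. The Mir100 cluster holds Mir100 (ENSMUSG00000093011.1) at chr9:41531425-41531504, Mirlet7a-2 (ENSMUSG00000092770.1) at chr9:41536716-41536811 and Mir125b-1 (ENSMUSG00000093354.1) at chr9:41581926-41582002. These lie in introns of the non-coding genes 3110039I08Rik, a RefSeq synonym of Mir100hg, and Gm49317. Mir125b-1 also lies in an exon of Gm28119, and Mir100 lies opposite an exon of Gm48742. The Mir99b cluster holds Mir99b (ENSMUSG00000065396.1) at chr17:17830188-17830257, Mirlet7e (ENSMUSG00000105758.1) at chr17:17830352-17830444 and Mir125a (ENSMUSG00000065479.2) at chr17:17830812-17830879. Mir99b and Mirlet7e are in introns of Spaca6, a protein-coding gene of sperm, and Mir125a overlaps an annotated exon of it. From the start of the first hairpin to the end of the last, the Mir99b cluster spans 692 bases, the Mir99a cluster 47408 and the Mir100 cluster 50578. In the longer pair the miR-125 gene stands apart, 46522 bases after Mirlet7c-1 and 45114 bases after Mirlet7a-2.

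**Figure D1:**
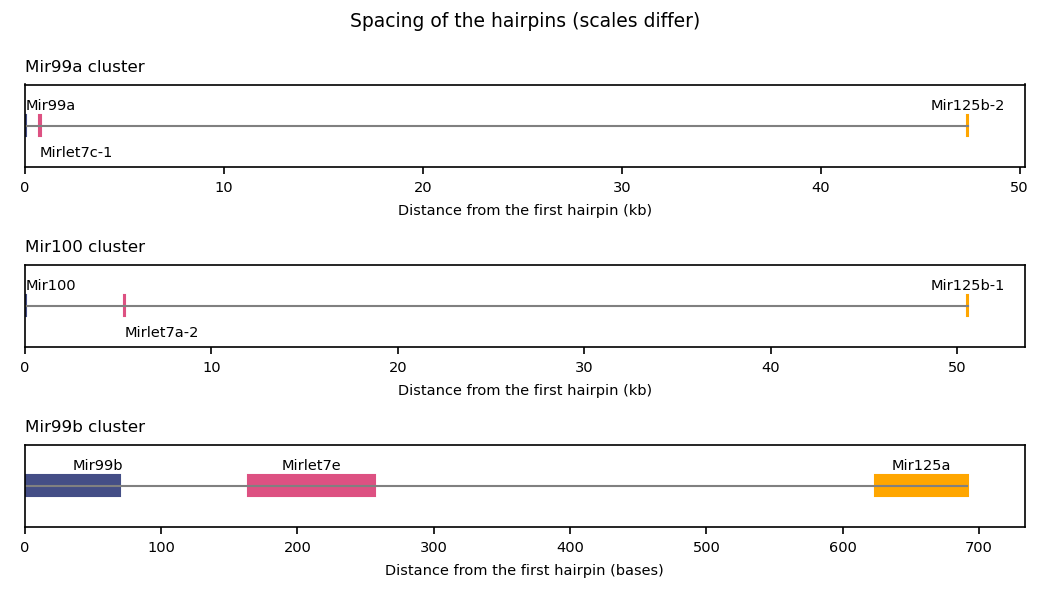
Spacing of the hairpins in each cluster, with distance from the start of the first hairpin on the x axis (kb in the upper and middle panels, bases in the lower one) and hairpins drawn to scale. The Mir99b cluster fits within 692 bases, and the miR-125 gene of the other clusters lies over 45 kb from the let-7 gene.

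Replicate 1 held 1573213 counts on the strand of microRNA genes and replicate 2 held 5429127. Levels are counts per hairpin scaled to 1000000 such counts (CPM), and the arms of a hairpin are not separated in the tables. Reads that aligned to several places were given to no gene, and formed 68.6% of replicate 1 and 69.7% of replicate 2. Of 9 skeletal muscle markers all had counts in both libraries, summing to 36362 CPM in replicate 1 and 74995 in replicate 2. Most of this was Mir206, at 34864 and 72482 CPM, whereas Mir1a-2 was at 378 and 318, Mir133a-2 at 7.63 and 2.03 and Mir133b at 28.0 and 26.9. Mir208b was at 219 and 994 CPM, Mir499 at 188 and 416 and Mir486 at 651 and 717. Mir133a-1 was at 12.1 and 22.8 and Mir1a-1 at 14.0 and 15.8. The Mir1a genes are known to share a mature arm, as are the Mir133a genes, so their levels are uncertain like those of the 4 members above. Marker arms were not searched for second loci here, so the levels of other markers may be affected too. Other cell types were present: Mir126a of endothelium had 93328 and 103367 CPM, the 4 smooth muscle and fibroblast markers summed to 132822 and 63363 CPM (mostly Mir143, while Mir214 had 1674 and 2355), the erythroid pair to 2703 and 587 and the 3 immune genes to 2127 and 1423. The 4 epithelial markers summed to 423 and 231 CPM and the 7 neural ones, nearly all from glial Mir338, to 1581 and 750. Mir124a-1, Mir124a-2, Mir124a-3 and Mir9-2 were listed at 0 in both, but each is known to share a mature arm with other loci, so these zeros set no limit on the level. In a whole muscle, fewer cells of a type and less RNA per cell cannot be told apart, and the part of these cell types in the levels below was not tested.

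The 9 genes together held a share of the microRNA counts that was nearly the same in both libraries, and the Mir99a cluster held most of it. They held 4.35% of the counts in replicate 1 (exact binomial 95% interval 4.32 to 4.39) and 4.28% in replicate 2 (4.27 to 4.30), a mean of 4.32% ± 0.0506 (SD, n = 2). The Mir99a cluster held 2.85% and 2.67% of all microRNA counts, 63.8% ± 2.21 of what the 9 genes held. The Mir99b cluster held 0.842% and 0.808%, and the Mir100 cluster 0.666% and 0.809%. The Mir99a cluster was thus above the others in both libraries. The Mir99b cluster was above the Mir100 cluster in replicate 1, and in replicate 2 their intervals overlapped (0.801 to 0.816 and 0.801 to 0.817). All intervals cover counting error only, since no molecular identifiers are given. The 4 members whose 5′ arm occurs at 2 loci added 0.0754% ± 0.00703 of all counts, so the cluster totals are essentially those of the other 5 members. Reads that aligned to several places are in none of these totals.

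**Figure D2:**
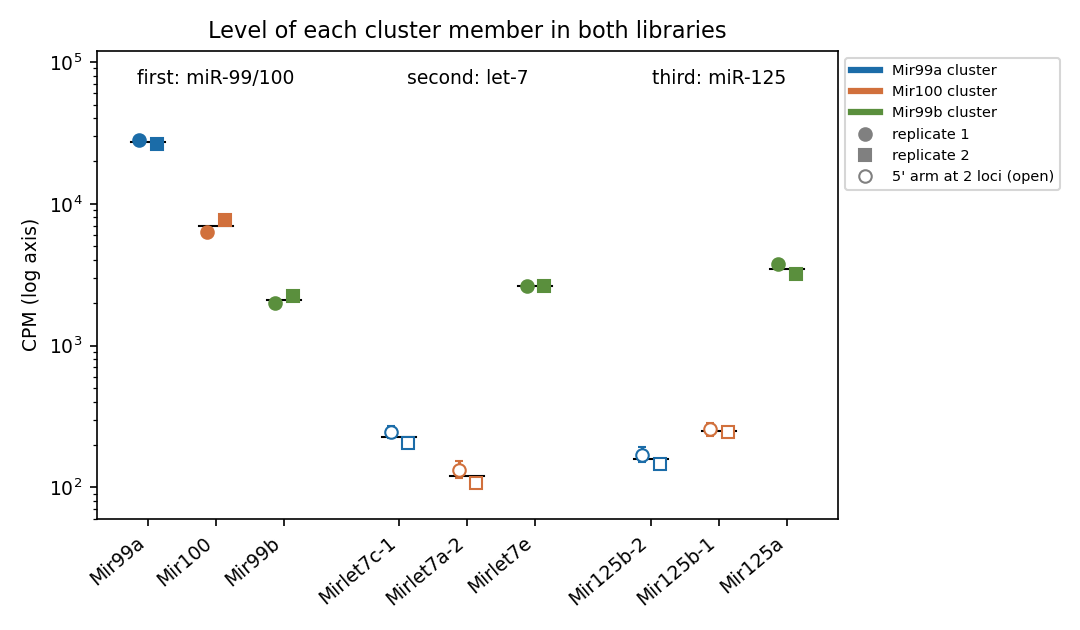
CPM on a log axis for each member in replicate 1 (circles) and replicate 2 (squares), with exact 95% counting intervals and the mean as a black line, grouped by position and coloured by cluster. Open symbols mark the 4 members whose 5′ arm occurs at 2 loci; they lie between 108 and 256 CPM, below the 5 filled members at 2002 CPM and above.

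At the first position the order of the paralogs was Mir99a, Mir100, Mir99b in both libraries. Mir99a, the source of miR-99a-5p, had 28049 CPM in replicate 1 and 26305 in replicate 2, and ranked 11 and 12 among all genes. Mir100 had 6274 and 7737 CPM, at ranks 26 and 22. Mir99b had 2002 and 2220 CPM, at ranks 53 and 48. The ranges of the 3 genes did not overlap. Within a library, Mir99a exceeded Mir100 by a log2 ratio of 2.16 in replicate 1 (exact 95% interval 2.13 to 2.19) and 1.77 in replicate 2 (1.75 to 1.78), a mean of 1.96 ± 0.28 (SD, n = 2) or 3.90-fold. It exceeded Mir99b by 3.69 ± 0.17 on the log2 scale, 12.9-fold. Mir100 exceeded Mir99b by 1.72 ± 0.11, 3.31-fold. With 2 libraries the sign of a ratio cannot reach a p of 0.05, so none is given for these comparisons, each of which had the same direction in both libraries.

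The sum of the 3 miR-99/100 genes was steady while its make-up shifted. They held 3.63% of all counts in replicate 1 and 3.63% in replicate 2. Mir99a made up 77.2% of this sum in replicate 1 (76.9 to 77.6) and 72.5% in replicate 2 (72.3 to 72.7). Mir100 made up 17.3% (17.0 to 17.6) and 21.3% (21.2 to 21.5), and Mir99b 5.51% (5.32 to 5.70) and 6.12% (6.02 to 6.23). These 3 hairpins are all those in the tables that hold a RefSeq mature sequence with the seed ACCCGUA. The whole of that seed's counts is thus theirs by the choice of genes, whatever the levels. Mir99a and Mir100 differ by the single change U16A in the 5′ arm.

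At the second position Mirlet7e stood far above its paralogs. Mirlet7e had 2649 CPM in replicate 1 and 2651 in replicate 2, with library totals the smallest spread of the 9 genes. With TMM or DESeq2 scaling, Mir99a differed less between the libraries than Mirlet7e, as given below. Mirlet7c-1 had 245 and 204 CPM, and Mirlet7a-2 had 133 and 108. No ranges overlapped. The log2 ratio of Mirlet7c-1 over Mirlet7e was -3.43 (-3.59 to -3.28) in replicate 1 and -3.70 (-3.79 to -3.61) in replicate 2, a mean of -3.56 ± 0.19. For Mirlet7a-2 over Mirlet7e it was -4.47 ± 0.21, 22.1-fold lower. Mirlet7c-1 was 1.87-fold above Mirlet7a-2, a log2 ratio of 0.90 ± 0.03, on 386 and 1109 counts against 209 and 586. Mirlet7e is the let-7 member whose 5′ arm occurs at 1 locus, and the other 2 have theirs at 2 loci. The annotated copy number thus moves with the level, and its part in the difference was not tested.

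The count of Mirlet7e rests on the strand. Another annotated microRNA gene, Gm25927, lies on the opposite strand over the same bases, and when strand was ignored Mirlet7e was listed at 0 in both libraries. In the strand-specific tables Mirlet7e had 4168 and 14391 reads, and Gm25927 was listed at 0 on its own strand. None of the other 8 members lies over another microRNA gene, and all 9 were listed at 0 reads on the opposite strand in both libraries. In let-7 precursors the protein Lin28 binds the letters GGAG. That motif, searched on the hairpin's own strand, occurs in the hairpins of Mirlet7c-1, Mirlet7a-2 and Mirlet7e, in Mir125b-1 and Mir125a, and in 37.2% of all 2202 hairpins. A match is no evidence of binding.

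At the third position Mir125a stood above both copies of miR-125b. Mir125a had 3766 CPM in replicate 1 and 3211 in replicate 2. Mir125b-1 had 256 and 246 CPM, and Mir125b-2 had 170 and 147, so again no ranges overlapped. The log2 ratio over Mir125a was -3.79 ± 0.12 for Mir125b-1, 13.9-fold lower, and -4.46 ± 0.01 for Mir125b-2, 22.0-fold lower. Mir125b-2 was below Mir125b-1 in both libraries, by a log2 ratio of -0.59 (-0.82 to -0.37) and -0.74 (-0.87 to -0.61). The copies of miR-125b share their 5′ arm, printed above, and the rest of each hairpin is their own. The tables do not show which bases the 403 and 1333 reads of Mir125b-1, or the 267 and 798 of Mir125b-2, covered. Their levels are those of reads given to a single locus, not those of miR-125b-5p as a whole. As with let-7, the part of the second locus in the difference from Mir125a was not tested.

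**Figure D3:**
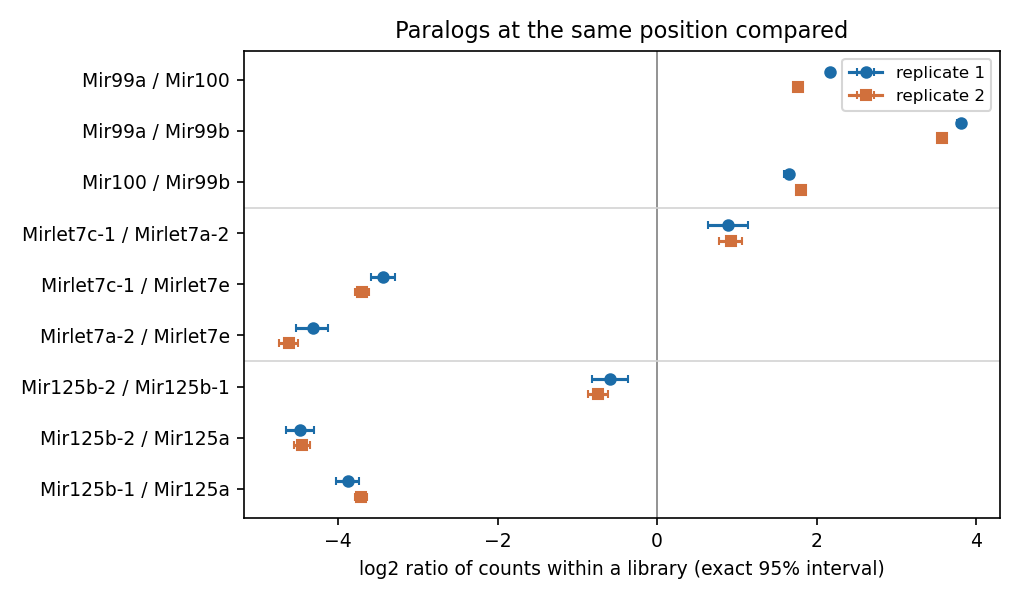
Log2 ratio of counts between paralogs at the same position in replicate 1 (circles) and replicate 2 (squares), with exact 95% intervals, from the first position at the top to the third at the bottom. The first gene named is above the second to the right of 0; Mirlet7c-1, Mirlet7a-2, Mir125b-1 and Mir125b-2 lie between -4.62 and -3.43 against the paralog of the Mir99b cluster.

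Among reads given to a single gene, the clusters therefore differed in make-up. Mirlet7c-1, Mir125b-2, Mirlet7a-2 and Mir125b-1 have a 5′ arm that occurs at 2 loci. Reads that aligned to several places enter none of these shares, and their part in the differences was not tested. In the Mir99a cluster, Mir99a held 98.6% ± 0.0994 of the counts, Mirlet7c-1 0.814% ± 0.0677 and Mir125b-2 0.574% ± 0.0317. In the Mir100 cluster, Mir100 held 94.9% ± 1.04, Mir125b-1 3.44% ± 0.573 and Mirlet7a-2 1.66% ± 0.466. In the Mir99b cluster, where every 5′ arm occurs at 1 locus, Mir125a held 42.2% ± 3.54, Mirlet7e 32.1% ± 0.935 and Mir99b 25.6% ± 2.60. Here the order was the reverse of that along the chromosome, Mir125a above Mirlet7e above Mir99b, in both libraries. The largest of the 3 within-cluster gaps was that of Mir99b against Mir125a, a log2 ratio of -0.91 (-0.97 to -0.85) in replicate 1 and -0.53 (-0.57 to -0.50) in replicate 2. Mir99b against Mirlet7e gave -0.40 and -0.26. Per 100 bases of hairpin, Mir99b had 2859 and 3171 CPM and Mirlet7e 2849 and 2850, so their order turned on this scale. Mir125a, at 5538 and 4722 CPM per 100 bases, stayed above both.

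**Figure D4:**
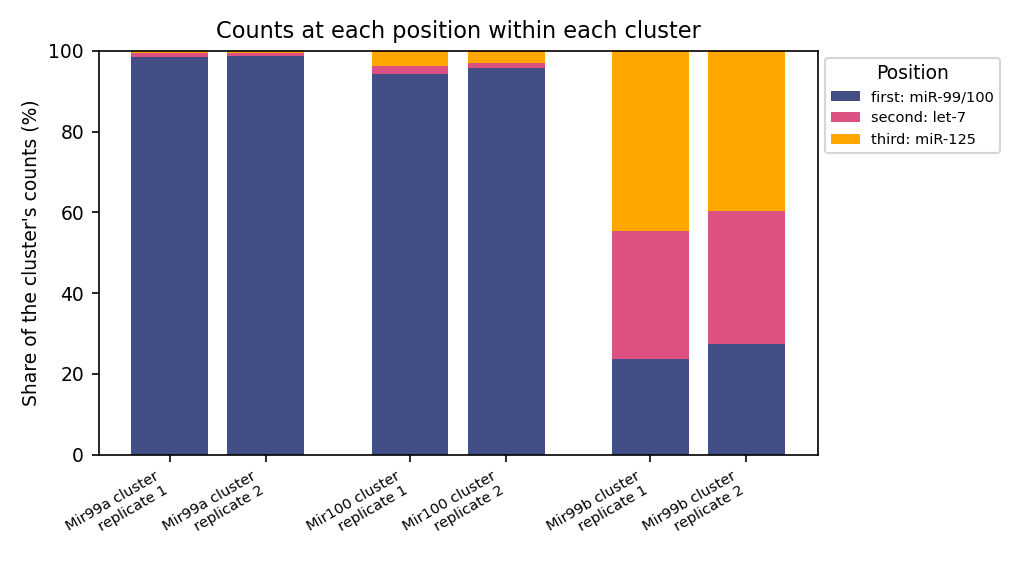
Share of each cluster's counts (%, y axis from 0 to 100) held by the miR-99/100, let-7 and miR-125 position, with 1 bar per library. Mir99a and Mir100 fill 94.2 to 98.7% of their bars, whereas Mir99b holds 23.8% and 27.5% of its own. Reads that aligned to several places are in no bar.

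Over all positions, the order of mean levels was Mir99a, Mir100, Mir125a, Mirlet7e, Mir99b, Mir125b-1, Mirlet7c-1, Mir125b-2 and Mirlet7a-2. The largest step between neighbours, 8.41-fold, came between Mir99b, the lowest member with its 5′ arm at 1 locus, and Mir125b-1. Mir125b-1 and Mirlet7c-1 had overlapping counting intervals in replicate 1 (232 to 282 and 221 to 271 CPM), as did Mir125b-2 and Mirlet7a-2 (150 to 191 and 115 to 152). In the deeper replicate 2 the intervals of both pairs were apart, at 233 to 259 against 192 to 217 CPM and at 137 to 158 against 99.4 to 117. All other neighbours were separated by more than both libraries' intervals. In the order of all genes by mean CPM, Mir99a stood between Mir26b (27840 CPM ± 1020) and Mir127 (26718 ± 3234), Mir100 between Mir196b and Mir27b, and Mir99b between Mir337 and Mir376c. The mean of Mir99a, 27177 ± 1233 CPM, differed from those of both neighbours by less than the spread between libraries. So did that of Mir100, at 7005 ± 1034 CPM, from Mir196b at 7019 ± 643 and Mir27b at 6939 ± 227.

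Among reads given to a single gene, relatives outside the clusters gave a different balance in each family. Reads that aligned to several places, as those of let-7a-5p, let-7c-5p and miR-125b-5p can, enter neither side of these shares. The let-7 members of the clusters held 2.13% ± 0.0632 of the counts of the 14 hairpins with the seed GAGGUAG, which together held 14.0% ± 0.201 of all counts. Mirlet7e at 2650 CPM was a little below Mir98 (2746 CPM ± 16.6), and well below Mirlet7f-2 (4586 ± 60.6) and the far more abundant Mirlet7g, Mirlet7i, Mirlet7b and Mirlet7d. Only the arms of the 9 members were searched for second loci. Other let-7 genes, Mirlet7f-2 and Mirlet7f-1 (144 CPM ± 20.6) among them, may share arms too, and such reads would also be missing from these shares. The let-7 partner loci of the members' shared arms were below Mirlet7e. Mirlet7a-1, which shares let-7a-5p with Mirlet7a-2, had 184 CPM ± 28.6, and Mirlet7c-2, which shares let-7c-5p with Mirlet7c-1, had 560 ± 75.2. The miR-125 members held 75.4% ± 2.15 of the counts of the 6 hairpins with the seed CCCUGAG. The rest came from Mir351, an X-linked gene with that seed, at 1263 ± 12.0 CPM. In the miR-10 branch, Mir10b in the Hox D cluster had 10502 ± 25.3 CPM and Mir10a in the Hox B cluster 4549 ± 848, so Mir99a was above both and Mir100 lay between them.

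Differences between the libraries were small in the members. Of the 9, 6 passed a two-sided exact binomial test with Benjamini-Hochberg adjustment over all 364 genes that had a summed count of at least 10; of those 364 genes, 45.3% passed. Of the members, 4 were higher in replicate 1 (30.2% of all genes tested) and 2 in replicate 2 (15.1%). No member was past 1.5-fold, against 28.3% of all genes tested. The genes tested include some with far fewer counts than any member, so this background is not matched for level. On the log2 scale, the median ratio of replicate 2 to replicate 1 was -0.09 in the members and -0.15 over all genes tested, where the middle 90% of genes ran from -1.42 to 0.72. This test compares the reads of 2 libraries of 1 group, not conditions.

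Mir100 and Mir99b were higher in replicate 2, and Mir125a in replicate 1, whichever scaling was used. Mir100 had a log2 ratio of 0.30 (0.27 to 0.33; exact binomial test, adjusted p = 2e-80) and Mir99b of 0.15 (0.09 to 0.21; adjusted p = 9.1e-07). Mir125a had -0.23 (-0.27 to -0.19; adjusted p = 1.1e-24), so the first and the third gene of the Mir99b cluster went opposite ways, although they lie within 692 bases. Mirlet7e, between them, had a log2 ratio of 0.00 (-0.05 to 0.05) with library totals, but passed the test at 0.08 with TMM and 0.13 with DESeq2 scaling. The calls of the other 3 depended on scaling. Mir99a had -0.09 with library totals (exact binomial test, adjusted p = 9.4e-31), -0.01 with TMM (adjusted p = 0.15) and 0.03 with DESeq2 size factors (adjusted p = 5.5e-05). Mirlet7c-1 had -0.27 (adjusted p = 0.0060) and Mirlet7a-2 -0.30 (adjusted p = 0.025), and neither passed the exact binomial test with TMM (adjusted p = 0.069 and 0.11) or DESeq2 scaling (0.19 and 0.22). Mir125b-1 at -0.06 (adjusted p = 0.62) and Mir125b-2 at -0.21 (adjusted p = 0.089) did not pass the exact binomial test with library totals. In the Mir100 cluster, the 3 log2 ratios thus ran from -0.30 for Mirlet7a-2 to 0.30 for Mir100. The interval of Mir100 was apart from the others, while those of Mirlet7a-2 (-0.53 to -0.06) and Mir125b-1 (-0.22 to 0.10) overlapped.

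Relatives varied as little, with exceptions. In the same test, the 9 other let-7 genes gave 3 that were higher in replicate 2 and 2 that were lower, with a median log2 ratio of 0.00. Mirlet7d was 1.14-fold higher in replicate 2. The partner loci Mirlet7a-1 and Mirlet7c-2 had log2 ratios of -0.32 and -0.28, beside -0.30 and -0.27 for Mirlet7a-2 and Mirlet7c-1. Mir10a had -0.38 and passed, while Mir10b at 0.00 and Mir351 at 0.02 did not. Of genes with a mean of at least 100 CPM, Mir188, Mir361 and Mir181c had the log2 ratios nearest to that of Mir99a, within 0.02 of it. With 2 libraries this likeness is a single number per gene.

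**Figure D5:**
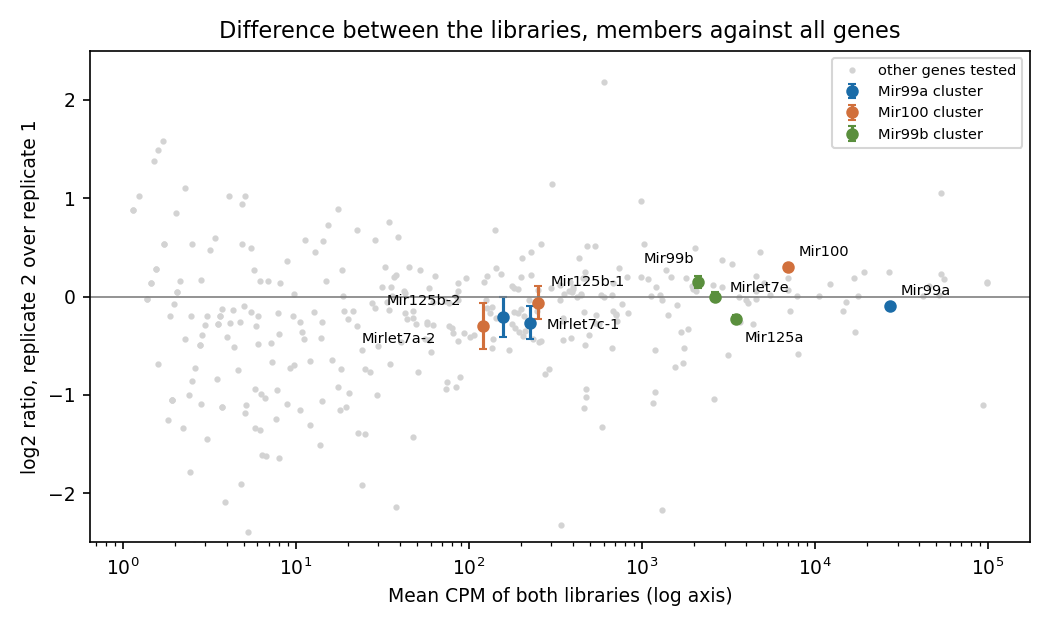
Log2 ratio of replicate 2 over replicate 1 (y axis) against mean CPM on a log axis, for the 9 members with exact 95% intervals and for all other genes tested in grey; 6 genes lie beyond the y axis. The members lie between -0.30 and 0.30, within the middle 90% of all genes tested, which runs from -1.42 to 0.72.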

How the data were processed

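Small RNA libraries (size range under 30 per the labels) of 2 replicates were used. The authors deposited raw read counts per microRNA gene, 1 table per library with 3 count columns and 4 tally rows that name no gene. From the values, the columns hold reads on either strand, the gene strand and the opposite strand. The assembly was mm10 per the labels and the annotation GENCODE M21 per the deposited readme files. The aligner, the counter and their settings were not given in the sources used here. GENCODE M21 names every one of the 2202 identifiers.

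Gene-strand counts were scaled to CPM over all gene rows. The tally rows, 78.1% of all reads, stayed out. Ratios used an offset of 0.5 counts, and shares and ratios exact (Clopper-Pearson) 95% intervals. Library differences were tested with an exact binomial test (scipy 1.17.1, tested on simulated data), adjusted over genes whose counts summed to 10 or more, at 0.05. The simulated counts varied by counting error only, so that check does not cover variation between libraries. TMM (edgeR 4.0.16) and DESeq2 1.42.0 size factors, estimated on those genes, were alternatives, as were counts on either strand, a denominator of all aligned reads, other offsets, hairpin length, no filter and each replicate left out. Motifs and shared stretches were searched in the hairpins of GENCODE M21, and seeds were read from RefSeq mature sequences. Named genes were the members, listed relatives, the neighbours of the miR-99/100 genes in level and the 3 genes nearest Mir99a in ratio. Members and lists were chosen with earlier results of these data known.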

Additional observations from a re-analysis of the deposited data

Results flagged for a closer look

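Beside the counts on genes, the tables tally reads that aligned to several places, 68.6% of the total in replicate 1 and 69.7% in replicate 2. They stood out because they exceed the counts on all microRNA genes and enter no level given above. The tally does not say which of them came from let-7a-5p, let-7c-5p or miR-125b-5p. Groups of 2 are too small to test for a library far from the others.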

How the results depend on the processing

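Of 100 recomputed main values, 77 kept their direction and moved by less than the spread between libraries (counts, by less than 1.5 times). Some of the 77 could not have moved further. With 2 libraries, a mean with a replicate left out always moves by less than the SD. Every member but Mirlet7e had the same count in the either-strand column, so ratios among those could not move there. The share of the 9 genes, 4.32%, was 4.24% with only the 5 members whose 5′ arm occurs at 1 locus. With the either-strand column it was 5.30%, and with all aligned reads as denominator 1.02%. In the same order, the Mir99a cluster held 3.60% and 0.650%, the Mir100 cluster 0.965% and 0.174%, and the Mir99b cluster 0.731% and 0.195%. The either-strand column lists Mirlet7e at 0, which turned the log2 ratios over it to 10.36 for Mirlet7c-1 and 9.45 for Mirlet7a-2 and raised Mir99b to 37.8% of its cluster. Per 100 bases of hairpin, log2 ratios were 2.26 for Mir99a over Mir100, 1.53 for Mir100 over Mir99b, 0.93 for Mirlet7c-1 over Mirlet7a-2, -0.55 for Mir125b-2 over Mir125b-1, and over Mir125a -4.52 for Mir125b-2 and -3.97 for Mir125b-1. An offset of 5 counts gave -4.44 for Mir125b-2 over Mir125a. TMM left 1 member higher in replicate 1, as did DESeq2 scaling, which gave 4 members and 94 of all genes higher in replicate 2 (library totals: 55) and turned the log2 ratio of Mir99a from -0.09 to 0.034. It moved every log2 ratio by 0.13, and the genes higher in replicate 1 went from 110 to 80. Without either replicate, the share of the 9 genes ran from 4.28% to 4.35%. No paired analysis was possible because the libraries form 1 group. Depth limits Mirlet7a-2 and Mir125b-2 most, at 209 and 267 counts in replicate 1.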
